A study of Mus musculus with 2 samples.

Results

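The nuclear-encoded respiratory chain genes are the genes of the cell nucleus that code for the subunits of mitochondrial complexes I to IV and of the ATP synthase. They were taken by symbol: every gene starting with Nduf, Uqcr or Atp5, with Cox4, Cox5, Cox6, Cox7 or Cox8, and Sdha, Sdhb, Sdhc and Sdhd, without symbols that contain -ps. This gave 93 of the 32285 genes in the files. Complex I had 36 members, its assembly factors (Ndufaf genes) 8, complex II 4, complex III 8, complex IV 20 with Ndufa4 and Ndufa4l2, and the ATP synthase 17. The cells came from subcutaneous tumors of a syngeneic fibrosarcoma in wild-type (WT C57BL/6) mice. Tumor pieces were kept in collagenase with DNase at 37 degrees C during 45 min, and the freed cells were separated on magnetic columns into an iron-positive fraction, which the column held back, and an iron-negative fraction, which ran through it. Each fraction gave 1 single-cell RNA library of the 10x Genomics 3' type, in which a UMI (unique molecular identifier) stands for 1 captured mRNA molecule. How many tumors or mice went into a library was not stated in the labels, and the data hold no measure of iron.

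The respiratory chain passes electrons from NADH, through complex I, and from succinate, through complex II, to ubiquinone, then through complex III, cytochrome c and complex IV to oxygen, and the proton gradient that results drives the ATP synthase. Electrons move inside complexes I to III along iron-sulfur clusters, which need iron to be made, and along hemes. Macrophages are known to use the chain differently with activation, and mitochondria are also where heme and iron-sulfur clusters are built. Of the members, 7 hold iron-sulfur clusters: Ndufv1, Ndufv2, Ndufs1, Ndufs7 and Ndufs8 in complex I, Sdhb in complex II, and Uqcrfs1, the Rieske protein, in complex III.

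The promoter windows of 3 iron-sulfur subunits are shown because Sdhb and Ndufs8 were the iron-sulfur genes lowest in several phagocyte states and Ndufs7 was the one that was not lower in iron-positive phagocytes. The windows run from 250 bases before to 50 bases after the annotated start, on the gene's strand, and come from RefSeq for build GRCm38.p6. Capitals mark matches to 3 motifs known from promoters of respiratory genes: GCATGCGC, the core of NRF1 sites, CCGGAAG, bound by ETS factors, and AAGATGGC, bound by YY1, each searched on both strands.
Sdhb, chr4:140961021-140961320, plus strand: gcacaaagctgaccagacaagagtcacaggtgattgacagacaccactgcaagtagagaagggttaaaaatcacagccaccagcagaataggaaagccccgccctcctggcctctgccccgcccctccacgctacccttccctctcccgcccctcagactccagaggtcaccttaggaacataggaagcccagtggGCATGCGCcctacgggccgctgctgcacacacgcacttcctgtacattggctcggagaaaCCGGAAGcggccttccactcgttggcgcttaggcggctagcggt
Ndufs8, chr19:3912725-3913024, minus strand: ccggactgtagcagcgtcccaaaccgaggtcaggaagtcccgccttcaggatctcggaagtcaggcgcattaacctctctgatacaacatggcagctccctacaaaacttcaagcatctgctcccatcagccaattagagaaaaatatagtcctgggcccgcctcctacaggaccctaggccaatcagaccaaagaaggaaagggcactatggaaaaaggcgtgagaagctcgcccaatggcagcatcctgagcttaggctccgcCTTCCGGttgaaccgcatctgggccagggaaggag
Ndufs7, chr10:80249199-80249498, plus strand: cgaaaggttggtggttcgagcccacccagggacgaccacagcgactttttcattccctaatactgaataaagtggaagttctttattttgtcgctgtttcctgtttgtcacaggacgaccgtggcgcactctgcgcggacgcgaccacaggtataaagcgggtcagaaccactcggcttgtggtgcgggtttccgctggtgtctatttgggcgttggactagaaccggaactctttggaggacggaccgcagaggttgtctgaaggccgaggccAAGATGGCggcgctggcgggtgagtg
In Sdhb the NRF1 core came first and the ETS match after it, Ndufs8 had the ETS match on the opposite strand, and Ndufs7 had the YY1 match. Of the 6 iron-sulfur genes with a window, 1 held the NRF1 core, 2 the ETS motif and 1 the YY1 motif. All of these are shown, and the iron-sulfur windows not shown had no match. Of the 93 members, 75 had a window in the table, 80 windows in all. The NRF1 core stood in 15% of the member windows and in 2.71% of all 32851 windows, the ETS motif in 23.75% and 8.86%, and the YY1 motif in 12.5% and 2.75%. No motif match overlapped another in the 3 windows shown, and a match is a description of letters, not a measured binding site.

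The iron-positive library held 13668 barcodes with 129921053 UMIs, and the iron-negative library 10124 barcodes with 132796517 UMIs. Cells with at most 15% of UMIs from mitochondrially encoded (mt-) genes were gated on summed UMIs of marker lists, so a gate is a range on a marker sum and not a proof of cell type. The phagocyte gate took 10192 iron-positive cells (median 7750 UMIs) and 9204 iron-negative cells (median 13058 UMIs), and all 14 phagocyte markers were found in both. Within it, 9 states were set by their leading genes, phagocytes past no state cut-off were kept apart, and so were RNA-poor phagocytes under 2000 UMIs. Of phagocytes above that depth, 2467 of 7936 iron-positive and 2392 of 8646 iron-negative cells passed 2 or more state cut-offs and went to the state whose cut-off they exceeded by the largest ratio. The libraries shared 85 barcode sequences, 47 of them among iron-positive and 52 among iron-negative phagocytes. With 1 library per fraction there is no replicate check and no test: intervals below are exact 95% intervals and cover counting error only. Levels are given as CPM, UMIs per 1000000 UMIs of the gate's own total, so a lower CPM does not say whether a cell held fewer of these molecules.

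In phagocytes as a whole the respiratory chain took nearly the same share of mRNA in both fractions. All members together had 20959 CPM in iron-positive and 21113 CPM in iron-negative phagocytes, from 1958450 and 2653875 UMIs, a log2 ratio of -0.01. The complexes differed in sign. Complex II had 410 CPM in iron-positive and 465 CPM in iron-negative phagocytes (log2 ratio -0.18, interval -0.20 to -0.16). All 4 of its members were lower in the iron-positive library, in which 24.9% of all genes were higher, and Sdhd was at -0.04 (interval -0.08 to 0.00). Complex III had 2148 CPM in iron-positive against 2075 CPM in iron-negative phagocytes (0.05), complex IV 5992 against 5901 CPM (0.02), complex I 5780 against 5828 CPM (-0.01), and the ATP synthase 6472 against 6688 CPM (-0.05). The median ratio of all measured genes was -0.11, so complex II lay below it and the others above it.

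Of the 93 members, 82 reached 10 CPM in at least 1 library and were measured. None was 1.5-fold higher and none 1.5-fold lower in iron-positive phagocytes, while of 7722 genes measured 2.46% were higher and 0.79% lower by that fold. The members' median log2 ratio was -0.02 beside -0.11 for all genes, and 40.2% of members lay above 0 beside 24.9% of all genes. These sums mix cell states that the libraries hold in different shares. The 11 members under 10 CPM were Ndufaf1, Ndufaf5, Ndufaf6, Ndufaf7, Cox4i2, Cox6a2, Cox6b2, Cox7b2, Cox8b, Cox8c and Ndufa4l2, of which Cox7b2 and Cox8c had 0 UMIs in both libraries.

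Several of the lowest measured ratios were those of catalytic and electron-carrying subunits. Atp5a1, the alpha subunit of the catalytic head of the ATP synthase, had 304.5 CPM in iron-positive and 380.4 CPM in iron-negative phagocytes (log2 ratio -0.32, interval -0.34 to -0.30). Atp5b, its beta subunit, had 302.1 CPM in iron-positive and 346.7 CPM in iron-negative phagocytes (-0.20). Sdhc, a heme-binding membrane anchor of complex II, had 88.3 CPM in iron-positive and 109.5 CPM in iron-negative phagocytes (-0.31). Ndufs8, which carries iron-sulfur clusters near the ubiquinone site, had 76.1 CPM in iron-positive and 93.2 CPM in iron-negative phagocytes (-0.29). Ndufa9 and Atp5g3 were at -0.23 and -0.22, and Uqcrc1 and Sdhb at -0.19 and -0.18. At the other end lay small accessory subunits: Ndufa7 had 271.9 CPM in iron-positive and 246.3 CPM in iron-negative phagocytes (0.14), Uqcrh, the hinge protein of complex III, 523.5 and 474.8 CPM (0.14), and Ndufa6, Cox6c, Uqcrq, Uqcrb, Atp5mpl and Cox8a between 0.13 and 0.10. Uqcrh is among 5 members with a named pseudogene (with Atp5c1, Atp5k, Ndufab1 and Atp5l), and whether reads were shared with the copies was not tested. The members with the most UMIs in complex I, its assembly factors, complex IV and the ATP synthase lay between these ends: Ndufa2 at 0.08, Ndufaf8 at 0.01, Cox4i1 at 0.05 and Atp5e at -0.04.

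The iron-sulfur subunits were lower than the rest of the chain in iron-positive phagocytes. Summed, they had 592 CPM in iron-positive and 647.5 CPM in iron-negative phagocytes (log2 ratio -0.13, interval -0.14 to -0.11), near the median of all genes. Their median ratio was -0.18, beside -0.02 for the 75 other measured members and -0.02 for the 41 other subunits of complexes I to III. After Ndufs8, Ndufs1, which also holds clusters of complex I, stood at -0.21 (32.0 CPM in iron-positive against 37.0 CPM in iron-negative phagocytes). Ndufv1, the NADH-oxidizing subunit, was at -0.20 (39.8 against 45.8 CPM), and Ndufv2 at -0.13 (83.5 against 91.2 CPM). Sdhb had 142 CPM in iron-positive and 161 CPM in iron-negative phagocytes, Uqcrfs1 103 and 107 CPM (-0.05). Ndufs7 alone was higher, at 116 against 113 CPM (0.04). In complex II the subunits without clusters did not all lie above Sdhb: Sdhc was at -0.31, Sdha, the flavoprotein, at -0.18, and Sdhd, the other membrane anchor, at -0.04. Transcript length, taken throughout from the longest annotated protein-coding transcript of each gene, moved with this contrast. The iron-sulfur subunits had a median length of 1363 nt against 838 nt for the other members, and 6 of the 7 were longer than 1000 nt. Other members over 1000 nt had a median ratio of -0.08 and those up to 1000 nt 0.01, while all genes stood at -0.12 and -0.00 in these classes. The part of length in the difference was not tested.

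**Figure D1:**
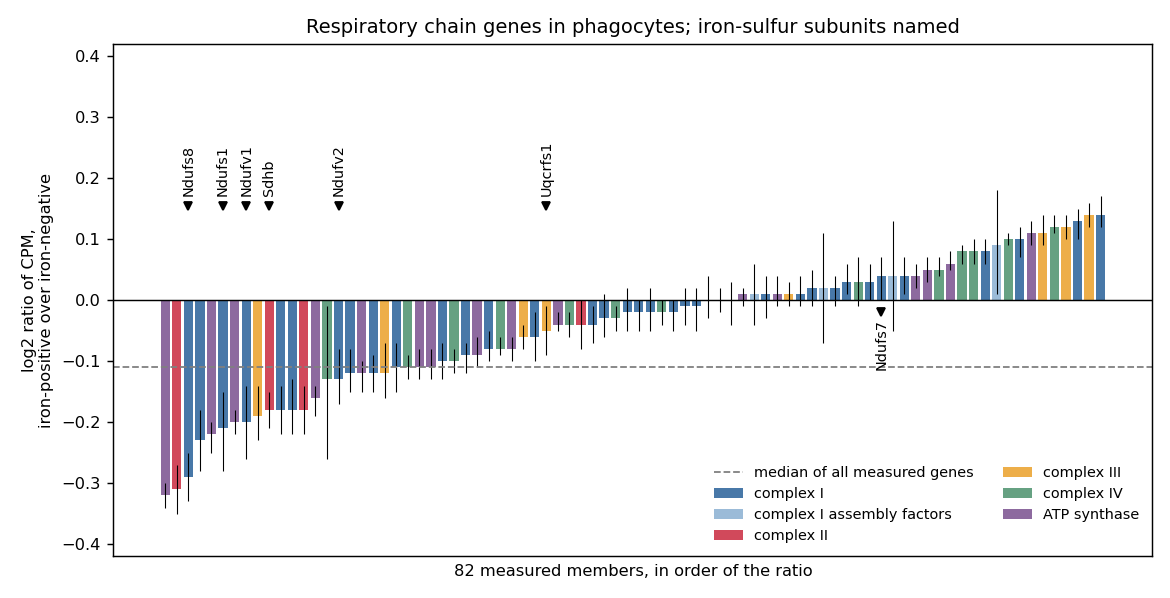
Log2 ratio of CPM in iron-positive over iron-negative phagocytes (y axis) for the 82 measured members in order of the ratio (x axis), coloured by complex, with exact 95% counting intervals as thin lines and the iron-sulfur subunits named. The bars run from -0.32 for Atp5a1 to 0.14 for Ndufa7, 6 of the 7 named subunits lie below 0, and the dashed line marks the median of all measured genes at -0.11.

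Other mitochondrial gene lists were summed in the same cells. Of all genes, 24.9% were higher in iron-positive phagocytes, and the sign counts of the lists stand beside that share. All 13 tricarboxylic acid cycle genes were lower in iron-positive phagocytes (655 against 742 CPM in iron-negative, log2 ratio -0.18), with Fh1 at -0.32 and Idh3a at -0.28. The 13 mitochondrially encoded subunits had 31658 CPM in iron-positive and 33922 CPM in iron-negative phagocytes (-0.10), with mt-Nd3 at -0.41 and mt-Nd6 at 0.16, within cells chosen by their mt- share. Of 11 measured genes for iron-sulfur cluster assembly, 6 were higher and 5 lower (sum -0.01), led by Bola3 at 0.23 and by the scaffold gene Iscu and Nfu1 at -0.16 and -0.17. Of 9 measured regulators of mitochondrial biogenesis, 8 were lower, among them Nrf1 at -0.33 and Pprc1 at -0.31. Of 77 mitochondrial ribosomal protein genes, 16 were higher and 61 lower (sum -0.05), close to the share over all genes.

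The larger differences lay between phagocyte states, and the same 4 states were lowest in both libraries. Of the 9 states, the cycling state (Mki67, Top2a) had the highest share: the members had 23654 CPM in the iron-positive and 22878 CPM in the iron-negative library. MHC class II cells had 23017 CPM in the iron-positive and 21141 CPM in the iron-negative library, Ly6c2 Plac8 cells 22156 and 20579 CPM, and Fcrls Cx3cr1 cells 21417 and 21470 CPM. Phagocytes past no state cut-off had 21308 CPM in the iron-positive and 21363 CPM in the iron-negative library, and interferon cells (Ifit1, Rsad2) 20113 and 19729 CPM. The low end held Retnla Cbr2 cells with 18610 and 19084 CPM, Mmp12 Cd36 cells with 17549 and 16383 CPM, hypoxia cells (Bnip3, Ero1l, Egln3) with 17290 and 16807 CPM, and Cd209f Cd163 Lyve1 cells with 16107 and 16774 CPM. RNA-poor phagocytes had 24078 CPM in the iron-positive and 21399 CPM in the iron-negative library. The 4 low states lay below every other state in each library. Cells of a state overlapped with cells of the others: the median cell of the Cd209f state had 1.44% of its UMIs from members in the iron-positive library and 1.57% in the iron-negative library, and the median cycling cell 2.34% and 2.26%.

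**Figure D2:**
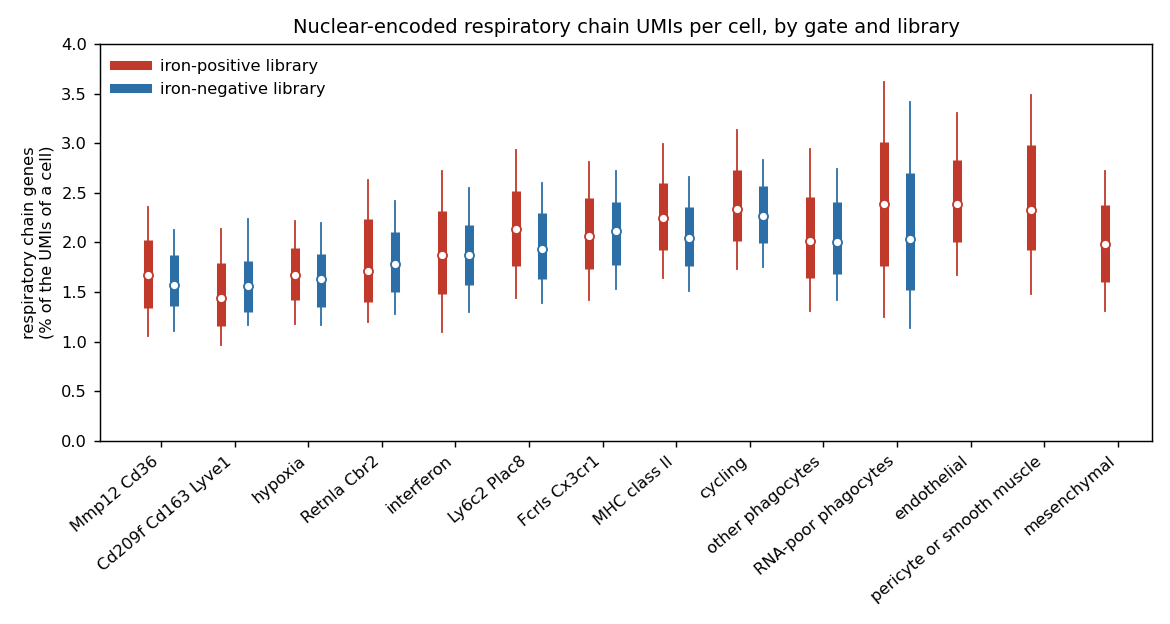
Share of a cell's UMIs that came from the members (y axis, percent), by gate and library; the point is the median cell, the thick bar the 25th to 75th percentile of cells and the thin line the 10th to 90th percentile. Gates with fewer than 50 cells in a library are not drawn, and the Mmp12 Cd36, Cd209f, hypoxia and Retnla states lie low in both libraries while the cycling state lies high.

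Against the remaining phagocytes of their own library, the 4 low states were low across nearly the whole chain. In Mmp12 Cd36 cells (1276 iron-positive and 131 iron-negative cells) the members' log2 ratio was -0.30 in the iron-positive and -0.37 in the iron-negative library. Of 82 members measured in both, 78 were lower in both libraries and Cox7a1 alone was higher in both. In Cd209f cells (347 and 82 cells) the ratios were -0.39 and -0.33, and 67 of 81 members were lower in both. In hypoxia cells (463 and 247 cells) they were -0.29 and -0.33, with 74 of 83 lower in both, and in Retnla Cbr2 cells (300 and 523 cells) -0.18 and -0.15, with 69 of 82 lower in both. Over all genes 56.85% were lower in both libraries in the Mmp12 state, 40.25% in the Cd209f state, 47.5% in the hypoxia state and 39.3% in the Retnla state. Over all genes the median ratio was -0.16 in the iron-positive and -0.17 in the iron-negative library in the Mmp12 state, -0.03 and -0.00 in the Cd209f state, -0.07 and -0.09 in the hypoxia state, and 0.02 and -0.01 in the Retnla state. The cycling state went the other way, at 0.20 in the iron-positive and 0.13 in the iron-negative library, with 70 of 81 members higher in both beside 49.5% of all genes and an all-gene median of 0.09 and 0.04. In the interferon state 59 of 81 members were lower in both libraries beside 46.5% of all genes, in the MHC class II state 37 of 81 were higher in both beside 23.6%, in the Fcrls state 44 of 81 beside 55.5%, and in the Ly6c2 state 29 of 81 beside 34.3%.

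Few members passed 1.5-fold in both libraries, and of these Sdhb, Ndufs8 and Atp5g1 did so in more than 1 state. In the Mmp12 state these were Sdhb, Atp5g1 and Ndufs8 on the low side, 3 of 82 beside 9.1% of all genes, and none lay on the high side, beside 4.86%. In the Cd209f state they were Cox5b, Sdhb, Ndufa5, Uqcrc1, Atp5d, Atp5g1, Uqcrfs1, Ndufs8, Ndufv1 and Cox7b, 10 of 81 beside 8.59% of all genes, with none on the high side, beside 8.78%. In the hypoxia state they were Sdhb, Ndufc2, Cox5a, Uqcr10, Atp5g1 and Ndufs8, 6 of 83 beside 7.51% of all genes, and Cox4i2 on the high side, 1 of 83 beside 4.59%. In the Retnla state Ndufa4 was the 1 member of 82 on the high side, beside 5.8% of all genes, and none lay on the low side, beside 4.02%. In the cycling state no member passed it in either direction, beside 11.6% of all genes on the high and 3.31% on the low side. In the Fcrls, MHC class II, Ly6c2 and interferon states no member passed it in both libraries either, beside 1.66%, 0.837%, 3.75% and 4.26% of all genes on the high and 2.53%, 3.22%, 4.71% and 0.878% on the low side. None did so in phagocytes past no state cut-off, beside 0.0401% and 1.74%, or in RNA-poor phagocytes, beside 1.18% and 2.68%. The 3 states in which Sdhb, Ndufs8 and Atp5g1 stood on the low side share most of the remaining phagocytes they are set against.

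Sdhb, the iron-sulfur subunit of succinate dehydrogenase, was low in all 3 states in both libraries. In the iron-positive library it had 82.4 CPM in Mmp12 cells, 85.45 CPM in Cd209f cells and 85.5 CPM in hypoxia cells, against 153, 144 and 145 CPM in the remaining phagocytes. In the iron-negative library it had 85.7, 89.7 and 83.9 CPM, against 162, 162 and 162.5 CPM, with 128, 76 and 187 UMIs behind the state values. The log2 ratios of Sdhb ran from -0.95 to -0.75, and the state values of both libraries lay close to each other. Ndufs8 had 51.65, 40.2 and 38.7 CPM in the same states of the iron-positive library, against 80.6, 77.5 and 77.9 CPM, and 44.2, 48.4 and 55.6 CPM in the iron-negative library, against 93.8, 93.5 and 93.9 CPM. Its ratios ran from -1.08 to -0.64. Atp5g1, which encodes a form of the c subunit of the proton-driven ring, had ratios of -0.60 in the iron-positive and -0.78 in the iron-negative library in Mmp12 cells, -1.10 and -0.97 in Cd209f cells, and -0.81 and -0.74 in hypoxia cells.

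The states also differed in which members were low. Cox5b, a nuclear subunit of complex IV, was low in Cd209f cells, at 189 CPM against 393 CPM in the remaining iron-positive phagocytes (log2 ratio -1.05) and 196 against 391 CPM in the iron-negative library (-0.99), and had -0.47 and -0.48 in hypoxia cells. Cox5a, another subunit of the same complex, was low in hypoxia cells, at 321 against 572.5 CPM in the iron-positive library (-0.84) and 357 against 596 CPM in the iron-negative library (-0.74), and at -0.15 in both libraries in Cd209f cells. Complex II was split in Cd209f cells: Sdhb was at -0.75 and -0.84, whereas Sdhc was at 0.22 and 0.42, Sdha at 0.33 and -0.05, and Sdhd at -0.16 and -0.06. In hypoxia cells all 4 complex II members were lower in both libraries, with the sum at 302 against 415 CPM in the iron-positive and 316 against 468 CPM in the iron-negative library. Ndufa4, a subunit that associates with complex IV, was the clearest exception. In Retnla cells it had 168 CPM in the iron-positive library, against 106 CPM in the remaining phagocytes (0.67), and 170.2 CPM in the iron-negative library, against 102 CPM (0.74). In Cd209f cells it had 147 CPM in the iron-positive and 166 CPM in the iron-negative library, against 106 and 105 CPM (0.48 and 0.67). Ly6c2 Plac8 cells were also high in Ndufa4, with 140.5 CPM in the iron-positive and 151.6 CPM in the iron-negative library. RNA-poor phagocytes had 151.7 and 160.6 CPM of it, beside 107.6 and 105.4 CPM in all phagocytes. In MHC class II cells Ndufa4 was at -0.54 and -0.52, where Sdhb was at 0.51 and 0.19.

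**Figure D3:**
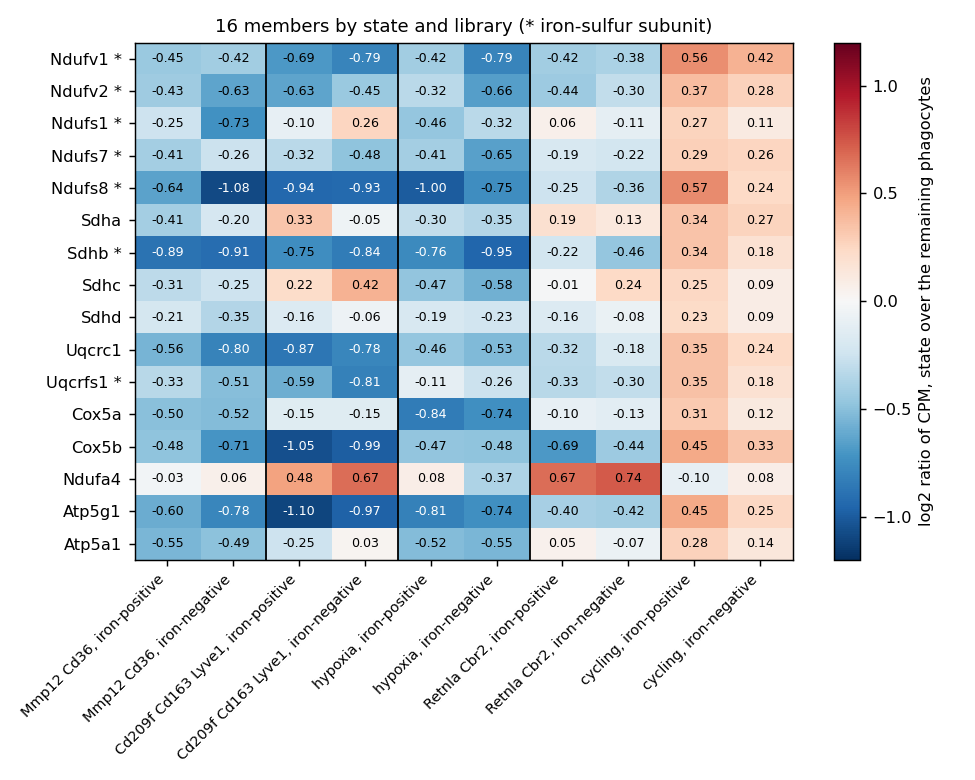
Log2 ratio of CPM in a state over the remaining phagocytes of the same library for 16 members (rows, iron-sulfur subunits starred) in 5 states, with the iron-positive library left of the iron-negative one in each pair of columns. Sdhb and Ndufs8 are blue (low) in the Mmp12 Cd36, Cd209f and hypoxia states of both libraries, Ndufa4 is red (high) in the Cd209f and Retnla states, and the cycling columns are red for nearly every row.

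Other gene lists shifted beside the members in some states and not in others, and their part in the members' values was not tested. Cytosolic ribosomal protein genes, short housekeeping mRNAs, were lower in Mmp12 cells (log2 ratio -0.26 in the iron-positive and -0.39 in the iron-negative library), in Cd209f cells (-0.61 and -0.57) and in Retnla cells (-0.33 and -0.35). In hypoxia cells they stood at 0.02 and -0.17, and in cycling cells at 0.05 and -0.02. Mitochondrially encoded subunits were lower in hypoxia cells (-0.56 and -0.45) and Mmp12 cells (-0.37 and -0.35), but not in one direction in Cd209f cells (0.13 and -0.09). Mitochondrial ribosomal protein genes were at -0.33 and -0.46 in Mmp12 cells, -0.51 and -0.40 in Cd209f cells, -0.33 and -0.46 in hypoxia cells, and 0.38 and 0.32 in cycling cells. Tricarboxylic acid cycle genes were at -0.25 and -0.42 in Mmp12 cells, -0.36 and -0.32 in hypoxia cells, and 0.31 and 0.21 in cycling cells. Ferritin transcripts took 6.55% of UMIs in Mmp12 cells of the iron-positive library and 4.68% in those of the iron-negative library, beside 3.35% and 2.18% in all phagocytes. The markers of this state were Mmp12, Cd36, Gpnmb, Slc40a1 and Hmox1, so its cells were chosen in part on genes of iron and heme handling. The part of that choice in the ferritin share and in the members' values was not tested.

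Transcript length moved with part of the state differences. Among all genes with transcripts up to 1000 nt, the median log2 ratio in Cd209f cells was -0.43 in the iron-positive and -0.33 in the iron-negative library, and short members had -0.41 and -0.36. Short members thus stood beside short genes in general there, and likewise in Retnla cells, at -0.16 and -0.12 for short members beside -0.18 and -0.16 for short genes. In Mmp12 cells short members were at -0.31 and -0.33 beside -0.29 and -0.36 for short genes. Members over 1000 nt stood below genes of that class: in Cd209f cells they were at -0.39 and -0.42, beside -0.01 and 0.02 for all longer genes, in Mmp12 cells at -0.35 and -0.42, beside -0.16 and -0.15, and in Retnla cells at -0.20 in both libraries, beside 0.04 and -0.00. In hypoxia cells short members were at -0.30 and -0.35 beside -0.20 and -0.29 for short genes, and longer members at -0.37 and -0.45 beside -0.06 and -0.08.

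In the Mmp12, Cd209f, hypoxia and Retnla states the iron-sulfur subunits lay further down than the rest of the chain in both libraries, and in the cycling and MHC class II states further up. In Mmp12 cells their sum had 432 CPM against 621 CPM in the remaining iron-positive phagocytes (log2 ratio -0.53, interval -0.56 to -0.49), and 414 against 650 CPM in the iron-negative library (-0.65, interval -0.77 to -0.54), and all 7 were lower in each. The other members stood at -0.29 and -0.36, and the other subunits of complexes I to III at -0.26 and -0.35. In Cd209f cells the iron-sulfur sum was at -0.60 and -0.65 beside -0.39 and -0.32 for the other members, in hypoxia cells at -0.48 and -0.65 beside -0.28 and -0.33, and in Retnla cells at -0.27 and -0.33 beside -0.17 and -0.15. The median iron-sulfur ratio was -0.43 and -0.63 in Mmp12 cells, beside -0.32 and -0.36 for the other measured members. It was -0.63 and -0.79 beside -0.40 and -0.37 in Cd209f cells, and -0.25 and -0.30 beside -0.16 and -0.13 in Retnla cells. In hypoxia cells it was -0.42 and -0.66 beside -0.31 and -0.38, with the other subunits of complexes I to III at -0.36 and -0.42. In cycling cells the iron-sulfur sum was higher, at 746 against 574 CPM in the iron-positive library (0.38) and 745 against 635 CPM in the iron-negative library (0.23). The other members stood at 0.19 and 0.13 there, and all 7 iron-sulfur subunits were higher in both. In MHC class II cells it was at 0.32 and 0.08 beside 0.17 and 0.00 for the other members. In Fcrls Cx3cr1, interferon and Ly6c2 Plac8 cells the iron-sulfur sum minus the other members ran from -0.07 to 0.04 over both libraries. In RNA-poor phagocytes the iron-sulfur sum was at -0.03 and -0.21 beside 0.21 and 0.03 for the other members. The part of transcript length in these differences was not tested. Among members over 1000 nt, the iron-sulfur median was -0.44 and -0.68 in Mmp12 cells, beside -0.33 and -0.36 for the others. It was -0.66 and -0.80 beside -0.36 and -0.37 in Cd209f cells, and -0.44 and -0.70 beside -0.35 and -0.43 in hypoxia cells. In Retnla cells it was -0.29 and -0.33 beside -0.16 in both libraries.

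**Figure D4:**
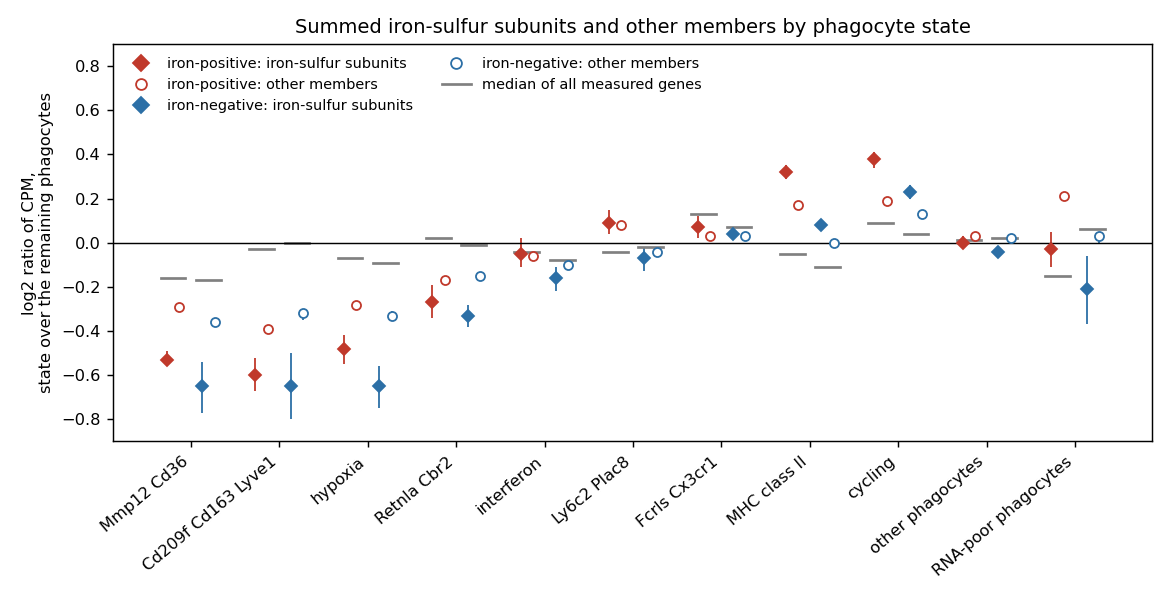
Log2 ratio of summed CPM in each state over the remaining phagocytes of the same library (y axis) for the 7 iron-sulfur subunits (filled diamonds) and the other members (open circles), iron-positive in red and left of iron-negative in blue, with exact 95% counting intervals. Grey bars mark the median of all measured genes; the diamonds lie below the circles in the Mmp12 Cd36, Cd209f, hypoxia and Retnla states of both libraries and above them in the MHC class II and cycling states.

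The 7 subunits differed among themselves. Uqcrfs1 was at -0.11 in the iron-positive and -0.26 in the iron-negative library in hypoxia cells but at -0.59 and -0.81 in Cd209f cells. Ndufs1 was at -0.10 and 0.26 in Cd209f cells, from 105 and 37 UMIs, where the other 6 were lower in both libraries. Ndufv1 and Ndufs8 had the highest ratios of the 7 in cycling cells of the iron-positive library (0.56 and 0.57), and Ndufv1 in the iron-negative library. Ndufv1 had 55.9 against 37.9 CPM in the iron-positive library and 58.9 against 44.1 CPM in the iron-negative library (0.42), and Ndufs8 was at 0.24 there. Uqcrc1, a core protein of complex III without a cluster, was as low as the iron-sulfur subunits in Mmp12 cells (-0.56 and -0.80) and Cd209f cells (-0.87 and -0.78). Ndufa6 ran against the chain, at -0.26 and -0.28 in cycling cells and 0.21 and 0.05 in hypoxia cells.

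Within a state, the iron-positive and iron-negative cells differed little. Of the 11 gates, the summed members were higher in the iron-positive library beyond counting error in 7 and lower in 2. The log2 ratios ran from -0.06 in Cd209f cells and -0.04 in Retnla cells to 0.10 in Mmp12 cells, 0.11 in Ly6c2 Plac8 cells, 0.12 in MHC class II cells and 0.17 in RNA-poor phagocytes, with a median of 0.04 over the gates. The all-gene medians of these gates lay between -0.33 in RNA-poor phagocytes and -0.04 in Fcrls cells. With scaling to that median the ratio became 0.06 in Cd209f and 0.04 in Retnla cells, so no gate was then lower, 0.22 in Ly6c2 Plac8 cells and 0.50 in RNA-poor phagocytes. In MHC class II cells 66 of 82 measured members were higher in the iron-positive library beside 29.8% of all genes, and in Mmp12 cells 56 of 83 beside 40.2%. Complex II was lower in the iron-positive library in all 11 gates, from -0.41 in RNA-poor phagocytes to -0.03 in MHC class II cells, and the interval included 0 in the MHC class II, Cd209f, interferon and hypoxia gates. In the MHC class II, interferon and hypoxia gates it stood at -0.03, -0.04 and -0.07, beside all-gene medians of -0.08, -0.06 and -0.08. The members of complex II differed: Sdhc was higher in 0 of the 11 gates, Sdha in 3, Sdhb in 4 and Sdhd in 6. Complex III was higher in all 11, from 0.05 to 0.28. Taken alone, the iron-sulfur sum stayed near 0 within gates, between -0.10 in Fcrls Cx3cr1 cells and 0.07 in MHC class II cells. Its interval lay below 0 in the Fcrls state and in phagocytes past no state cut-off, above 0 in the MHC class II state, and included 0 in the other 8 gates. Set against the other members, the median iron-sulfur ratio was lower in most gates too. The difference ran from -0.15 in RNA-poor phagocytes and -0.12 in Fcrls cells to 0.05 in Mmp12 and 0.10 in hypoxia cells, the only gates above 0. The 2 libraries differed in their make-up of states, with 1276 iron-positive against 131 iron-negative Mmp12 cells and 484 against 1388 Fcrls cells, and with every state given equal weight the median iron-sulfur ratio minus that of the other members was -0.08, against -0.17 over all phagocytes.

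Single members seldom passed 1.5-fold within a state, and those that did were named after their values were seen. In MHC class II cells Cox4i2 was the 1 member of 82 higher by that fold, beside 0.509% of all genes, and none was lower, beside 0.134%. In Mmp12, Retnla, Fcrls, Ly6c2 and cycling cells none passed it in either direction, while 4.5%, 2.39%, 0.821%, 1.77% and 0.954% of all genes were higher and 8.51%, 3.36%, 0.205%, 3.03% and 0.314% lower. Phagocytes past no state cut-off had none either, beside 1.64% and 0.615%. In Cd209f cells Ndufaf4 was higher and Ndufs6, Atp5o and Atp5a1 were lower, beside 7.45% and 13.9% of all genes. In interferon cells none of 83 was higher, beside 3.45%, and Cox4i2 and Cox7a1 were lower, beside 3.05%. In hypoxia cells Ndufaf4 and Cox6a2 were higher and Cox7a1 lower of 85, beside 4.26% and 8.79%. RNA-poor phagocytes had Ndufaf4 and Cox7a1 higher and Sdhc, Atp5b, Sdha and Atp5a1 lower of 83, beside 7.1% and 30.5%, and the markers of mesenchymal cells there summed to 605 CPM in the iron-positive and 146 CPM in the iron-negative library. The part of RNA from other cells in the RNA-poor values was not tested. Ndufaf4 rested on few UMIs in these gates of the iron-negative library. In RNA-poor phagocytes it had 1.639 CPM and Cox7a1 6.555 CPM, of 610180 UMIs in all. In Cd209f cells Ndufaf4 had 8.263 CPM of 847195 UMIs, and in hypoxia cells 7.624 CPM of 2229732 UMIs.

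Endothelial and pericyte gates came almost wholly from the iron-positive library, and so did most mesenchymal cells, so stromal cells were set against the phagocytes of that library. Between the libraries, mesenchymal cells had 20041 CPM of members in the iron-positive and 19731 CPM in the iron-negative library (log2 ratio 0.02), with 42 cells in the iron-negative library. Endothelial-gated cells (538 iron-positive and 10 iron-negative cells) had 24979 CPM of members against 20959 CPM in phagocytes, a log2 ratio of 0.25. Pericyte or smooth muscle cells (99 and 2 cells) had 25072 CPM (0.26), and mesenchymal cells (177 and 42 cells) 20041 CPM (-0.06). The median depths of these gates were 22838, 18012 and 22817 UMIs, above the 7750 UMIs of the phagocytes, and phagocyte markers summed to 1019, 631 and 1057 CPM in them, against 29002 CPM in phagocytes. The gates also held markers of each other, and a cell below the phagocyte cut-off and past the endothelial one was gated as endothelial whatever its other markers. Mesenchymal markers summed to 37003 CPM in mesenchymal cells, 17926 CPM in the pericyte gate and 8835 CPM in the endothelial gate, where the 10 endothelial markers summed to 4965 CPM. Pericyte markers summed to 13949 CPM in the pericyte gate, 1124 CPM in the endothelial gate and 931 CPM in the mesenchymal gate. The part of this overlap in the values was not tested, and fibroblasts and fibrosarcoma cells cannot be told apart by the mesenchymal gate.

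Complex II was the 1 complex lower in all 3 stromal classes. It had 321 CPM in endothelial-gated cells, 343 CPM in pericytes and 278 CPM in mesenchymal cells, against 410 CPM in phagocytes (log2 ratios -0.35, -0.26 and -0.56). Sdha was at 63.3, 66.4 and 50.9 CPM in these classes, against 95.6 CPM in phagocytes, and Sdhd at 60.7, 55.5 and 51.05 CPM, against 84.1 CPM. Sdhb was not part of this in the endothelial and pericyte gates, at 143 and 139.5 CPM against 142 CPM in phagocytes, and had 113 CPM in mesenchymal cells (-0.33). Complex IV, with Cox4i2 and Ndufa4l2 in the sum, was highest in pericytes, at 8164 CPM against 5992 CPM in phagocytes (0.45), and complex III in endothelial-gated cells, at 2811 against 2148 CPM (0.39). The iron-sulfur subunits were not set apart in stroma: their sum was at 0.24 in endothelial-gated cells, 0.25 in pericytes and -0.03 in mesenchymal cells, beside 0.25, 0.26 and -0.07 for the other members. Of 84 members measured in endothelial-gated cells 20 were 1.5-fold higher and 2 lower, beside 27.2% and 30.4% of all genes. In pericytes 17 of 85 were higher and 2 lower, beside 29.4% and 29.2%, and in mesenchymal cells 7 of 84 were higher and 6 lower, beside 27.6% and 31.3%.

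Among the stromal values, endothelial-gated cells had the most Ndufa8, an accessory subunit of complex I, at 289 CPM against 110 CPM in phagocytes (log2 ratio 1.39, interval 1.34 to 1.44). Ndufaf2, an assembly factor of complex I, was higher in all 3 stromal classes, at 47.0, 67.95 and 61.6 CPM in endothelial-gated cells, pericytes and mesenchymal cells, against 20.4 CPM in phagocytes. Ndufv1 was also higher in all 3, at 64.4, 92.85 and 74.4 CPM, against 39.8 CPM in phagocytes (0.69, 1.23 and 0.90). Ndufa4 was higher in mesenchymal cells, at 215 CPM against 108 CPM in phagocytes. Cox5a and Cox7a2l were lower in mesenchymal cells, at -0.83 and -0.78.

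The tissue-restricted isoforms gave the sharpest difference among the cell classes. Complex IV exists with common subunits and with isoforms of lung, heart, muscle or testis. Among them, Cox4i2 and Ndufa4l2 are known to be induced by hypoxia in human cells. Ndufa4l2 had 771 CPM in pericyte or smooth muscle cells of the iron-positive library (1487 UMIs, interval 733 to 812 CPM), 48.98 CPM in endothelial-gated and 68.0 CPM in mesenchymal cells, against 3.68 CPM in phagocytes. A UMI of it was found in 92.9% of the 99 pericytes, 17.8% of endothelial-gated cells and 33.9% of mesenchymal cells, against 1.55% of phagocytes, at median depths of 18012, 22838, 22817 and 7750 UMIs. Its common paralog Ndufa4 had 73.1 CPM in the pericytes and 108 CPM in phagocytes, so the pericytes were the 1 class in which the restricted form had more UMIs, counted at 3' ends and not divided by length. Cox4i2 had 594 CPM in pericytes (85.9% of cells), 31.4 CPM in endothelial-gated cells (14.9%) and 8.57 CPM in mesenchymal cells (6.2%), against 9.35 CPM in phagocytes (6.68%), and Cox4i1, its common paralog, 1020 CPM in pericytes and 918 CPM in phagocytes. Cox6b2, known from testis, had 30.6 CPM in pericytes from 59 UMIs (34.3% of cells), against 1.97 CPM in phagocytes (1.66%). Neither Cox4i2, Ndufa4l2 nor Cox6b2 was a marker of the gate.

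**Figure D5:**
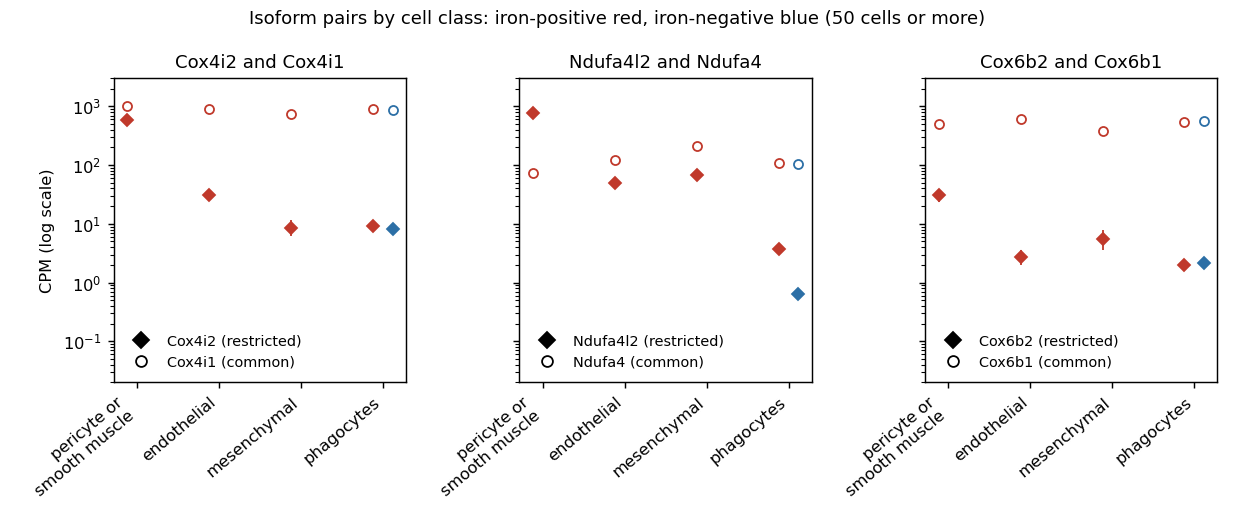
CPM on a log scale (y axis) of 3 restricted isoforms (filled diamonds) and their common paralogs (open circles) in 4 cell classes (x axis), iron-positive in red and iron-negative in blue where a library had 50 cells or more, with exact 95% counting intervals. Ndufa4l2 and Cox4i2 reach 771 and 594 CPM in pericyte or smooth muscle cells and stay under 10 CPM in phagocytes, while the common paralogs differ far less between classes.

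In phagocytes the restricted isoforms were rare, and the level of Ndufa4l2 moved with stromal markers of the library. Ndufa4l2 had 3.68 CPM in iron-positive and 0.628 CPM in iron-negative phagocytes, from 344 and 79 UMIs (log2 ratio 2.54). The pericyte markers, of which 12 of 12 and 9 of 12 were found, summed to 27.3 and 7.66 CPM in the same cells, with Kcnj8, Higd1b and Notch3 at 0 in the iron-negative library, and their part in the difference was not tested. Within phagocytes Cox4i2 and Ndufa4l2 were higher in hypoxia cells than in the rest. Cox4i2 had 17 CPM in hypoxia cells against 8.99 CPM in the remaining iron-positive phagocytes (0.93) and 17.04 against 7.91 CPM in the iron-negative library (1.13), from 72 and 38 UMIs. Ndufa4l2 had 14.4 CPM in hypoxia cells against 3.17 CPM in the remaining iron-positive phagocytes, and 9.87 against 0.462 CPM in the iron-negative library, in 4.97% and 2.43% of hypoxia cells. Pericyte markers, of which 12 and 4 of the 12 were found, summed to 23.4 and 4.93 CPM in these hypoxia cells, below the sums in all phagocytes of each library. Ndufa4l2 was also higher in Mmp12 cells, at 8.21 against 2.86 CPM in the iron-positive and 4.69 against 0.58 CPM in the iron-negative library, from 118 UMIs in 40 cells and 7 UMIs in 3 cells. In Cd209f cells it had 8.77 against 3.48 CPM in the iron-positive and 4.72 against 0.601 CPM in the iron-negative library, where 2 cells held all 31 UMIs of the iron-positive and 2 cells all 4 UMIs of the iron-negative library. Cox7a1, the heart and muscle isoform, was near 10 CPM in phagocytes of both libraries. It was higher in Mmp12 cells, at 12.3 against 8.55 CPM in the iron-positive library (0.53) and 15.4 against 9.95 CPM in the iron-negative library (0.66, interval -0.03 to 1.22). In hypoxia cells Cox7a1 had 10.6 against 9.06 CPM in the iron-positive and 20.2 against 9.83 CPM in the iron-negative library. Cox6a2 had 3.48 CPM in iron-positive and 2.88 CPM in iron-negative phagocytes, and 0 UMIs in the 99 pericytes and 177 mesenchymal cells, which allows shares of cells with a UMI of up to 3.03% and 1.695%. Cox7b2, Cox8b and Cox8c had 0 UMIs in phagocytes of both libraries, which allows up to 0.0294% of iron-positive and 0.0326% of iron-negative cells with a UMI.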

How the data were processed

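The deposited values are raw UMI counts of each gene in each barcode, without normalization, per the file headers. The authors used Cell Ranger and the mm10 build, per the submitters' processing notes, which name version 3.1.0, while the file headers name 5.0.0; which made the counts was not settled. No barcode had under 500 UMIs. Gates summed marker UMIs per 10000 UMIs of a cell: 50 for phagocytes, 20 for endothelial, and 40 for pericyte or smooth muscle and for mesenchymal cells. A cell below the phagocyte cut-off went to the class whose cut-off it exceeded by the largest ratio. The pericyte gate took precedence where its cut-off was passed and at least 50% of its 12 markers were found. The endothelial gate took precedence over all of these wherever its cut-off was passed. State cut-offs were 40 (Mmp12 Cd36), 8 (Cd209f, Retnla, Fcrls), 200 (MHC class II), 25 (Ly6c2, interferon, hypoxia) and 12 (cycling). No doublet caller was run: cells passing the phagocyte gate and another class gate (180 iron-positive and 28 iron-negative) were left out. Within 20% of the phagocyte cut-off lay 131 iron-positive and 9 iron-negative cells of 2000 UMIs or more.

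UMIs were summed per gate and library and divided by the gate's total (CPM). Log2 ratios used each count plus 0.5, genes at 10 CPM or more in either group were measured, and 1.5-fold was the call. Shares have exact Clopper-Pearson intervals, CPM exact Poisson ones, and a count of 0 was read as up to 3 counts. PCR duplicates are collapsed by UMI, and intervals cover counting error only. Annotation and transcript lengths came from GENCODE for mouse build GRCm38, which mm10 names too, to which all 93 members matched by Ensembl ID; how the authors counted overlapping genes is not stated in the labels, and no member overlapped an exon of another listed gene on its strand. The tools were numpy 2.4.6 and scipy 1.17.1 under Python 3.11.15, with pandas 2.3.3 for tables and matplotlib 3.10.9 for plots; the ratio and its interval were tested on simulated data.

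Members and lists were chosen with earlier results of these data known. Named genes were the iron-sulfur and complex II subunits, the isoform pairs, the 8 highest and 8 lowest ratios, and the largest member of each complex; members named for states and stroma were chosen after their values were seen. Ndufb1-ps, left out by its symbol, is given in the closing section.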

Additional observations from a re-analysis of the deposited data

Results flagged for a closer look

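The iron-positive over iron-negative ratios had opposite signs in different phagocyte gates; the difference between gates was not tested. For the summed members the log2 ratio was 0.23 higher in RNA-poor phagocytes than in Cd209f cells. For complex I the same pair of gates differed by 0.26, for the ATP synthase MHC class II cells exceeded Cd209f cells by 0.27, and for the iron-sulfur subunits MHC class II cells exceeded Fcrls cells by 0.16.

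Barcodes over the 15% mt- limit, which enter no comparison, held members too: 7405 CPM in 1522 iron-positive and 6035 CPM in 720 iron-negative barcodes (log2 ratio 0.30), or 18489 and 17357 CPM of the UMIs outside mt- genes, where mt- genes took 59.95 and 65.2 percent of UMIs. Ndufb1-ps, left out by its symbol and annotated as a long noncoding RNA, had 573 CPM in iron-positive and 562 CPM in iron-negative phagocytes (0.03).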

How the results depend on the processing

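No paired analysis was possible because each fraction gave 1 library. The summed members in phagocytes (-0.01) changed to 0.10 with scaling by the median ratio of all genes (-0.11 unscaled), 0.05 with a mean of each cell's CPM and 0.05 with states weighted equally, to -0.02 without RNA-poor phagocytes and -0.00 with cut-offs doubled; the values without mt- genes, at 5000 UMIs and with 10% free RNA taken off were -0.01. The iron-sulfur difference (-0.17) was -0.23 with the cell mean, -0.08 with states weighted equally and -0.11 at 50 CPM, and lay below 0 in all 16 alternatives run. The count higher by 1.5-fold became 1 with no filter on low members, Ndufa4l2. The median over states (0.04) became 0.12 with the median scaling and 0.02 with cells thinned to 2000 UMIs, which left out 2256 iron-positive and 558 iron-negative phagocytes. Of 106 values within single states, 14 took the other sign, among them Cd209f (0.06, reported as -0.06) and Retnla (0.04, reported as -0.04) with the median scaling. All alternatives for the state values, and leaving out RNA-poor phagocytes or the shared barcodes, were chosen after seeing the data. As means of the 2 libraries, the Mmp12, hypoxia and cycling states (-0.33, -0.31 and 0.16) became -0.17, -0.23 and 0.10 with the median scaling, and Retnla (-0.16) became -0.24 with cut-offs doubled. The iron-sulfur sum minus the rest became -0.36 in Mmp12 cells with cut-offs doubled and -0.40 in Cd209f cells when thinned (-0.26 in both as reported), -0.07 in Retnla cells (-0.14) with the cell mean, and 0.08 in cycling cells (0.14) with cells past at most 1 cut-off. Every sign of these state values held in the alternatives run; doubled cut-offs gave no value for Cd209f and hypoxia cells, and assigning only cells past at most 1 cut-off gave none for Mmp12 and Cd209f cells, since under 50 cells were left in a library. In the RNA-poor, Cd209f and hypoxia gates counts limit single members.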
